A study of Ambystoma mexicanum with 9 samples.

Results

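The Notch pathway genes NOTCH1, DLL1, JAG2, RBPJ and HES1 were followed in spinal cord of the axolotl, a salamander that regrows its cord, on 9 custom Affymetrix arrays. Every probe set that the array's annotation pairs with 1 of these 5 symbols alone was taken, which gave 6 probe sets (2 for NOTCH1 and 1 for each other gene) of 20035 tested, and 5 genes of 8639 with a symbol. The 1dpiT group was cord 1 day after ivermectin, which opens chloride channels gated by glycine, had been put into the central canal. The 1dpi group was injured cord of the same day, and the 0dpi group was uninjured cord. Each group had 3 arrays, and for each array 150 ng of total RNA from a pool of 10 animals of 2 to 3 cm was labelled. According to the methods, ivermectin or water went into the canal and some of the cord was cut out right afterwards. The sample names of 1dpi call the injury a crush and give no injection, those of 1dpiT give the injection and no injury, and the methods do not describe how 0dpi tissue was taken or whether it was injected. By these names, 1dpiT and 1dpi may differ in injection and kind of injury as well as in the drug. These cannot be told apart here. Pools stand for 10 animals at once, so every spread and test below is between pools and not between animals.

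Notch is a receptor on the cell surface that is switched on by ligands, such as Delta-like and Jagged proteins, held on the neighbouring cell. Ligand binding lets ADAM proteases and then gamma-secretase cut the receptor, and the freed intracellular part joins RBPJ on DNA and turns on HES and HEY genes, which code for transcriptional repressors. In the vertebrate neural tube this route is known for keeping neighbouring progenitor cells from becoming neurons at the same time, and in the adult cord the cells that line the canal (ependymoglia) keep progenitor features.

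One day after injury, the ligand genes DLL1 and JAG2, the DNA-binding partner gene RBPJ and the target gene HES1 were lower than in uninjured cord, and NOTCH1 was higher on 1 of its 2 probe sets. In cord given ivermectin, each of these 5 differences ran the other way against 1dpi, and no member was called different from 0dpi. The NOTCH1 changes depended on how the arrays were scaled, as given with its values below. DLL1, JAG2, RBPJ and HES1 kept their direction in both comparisons with 1dpi under each scaling tried. Among these scalings, centring on added poly-A control transcripts (spike-ins) lowered all probe sets of 1dpi alike against the other groups. It could therefore turn only genes that were higher in 1dpi, and the kept direction of the others under it was fixed in advance. All values are log2 RMA signals as deposited (RMA is a method that corrects background, evens out the arrays and sums up the probes of a probe set), so a difference of 1 is 2-fold. A change was called where limma's moderated test gave a Benjamini-Hochberg adjusted p below 0.05 over the 20035 probe sets, and errors of differences are standard errors of that model.

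**Figure D1:**
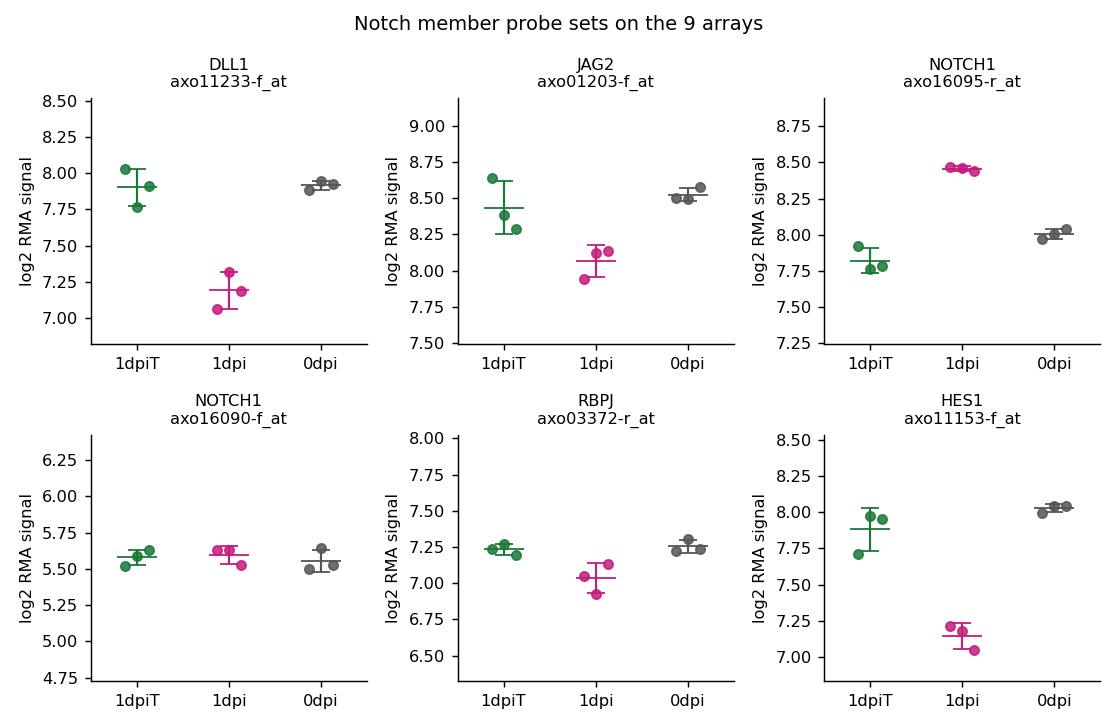
Log2 RMA signal (vertical axes, each spanning the same number of log2 units) of the 6 probe sets of NOTCH1, DLL1, JAG2, RBPJ and HES1 in 1dpiT, 1dpi and 0dpi cord. Points are arrays (3 per group) and bars the mean ± SD. The 1dpi arrays of DLL1, JAG2, RBPJ and HES1 lie below all arrays of the other groups. The 1dpi arrays of NOTCH1 axo16095-r_at lie above them as deposited, a direction that turned when arrays were centred on poly-A spike-ins (-0.094 for 1dpi minus 0dpi and 0.014 for 1dpiT minus 1dpi).

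The 2 ligand genes were both lowest in 1dpi. DLL1, which codes for a Delta-type ligand, had 8.03, 7.77 and 7.91 in the 1dpiT arrays, 7.06, 7.32 and 7.19 in the 1dpi arrays, and 7.88, 7.94 and 7.92 in the 0dpi arrays. All 3 injured arrays without the drug were lower than all 6 others, and the 1dpiT arrays lay on both sides of the 0dpi arrays. DLL1 was 1.65-fold lower in 1dpi than in 0dpi (log2 difference -0.73 ± 0.08, 95% interval -0.90 to -0.55, adjusted p = 2.47e-05). It was 1.64-fold higher in 1dpiT than in 1dpi (0.71 ± 0.08, adjusted p = 2.63e-05).

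JAG2, which codes for a Jagged-type ligand, had 8.64, 8.38 and 8.29 in the 1dpiT arrays, 7.94, 8.12 and 8.13 in the 1dpi arrays, and 8.50, 8.50 and 8.57 in the 0dpi arrays. Again the 1dpi arrays did not overlap those of either other group. The 1dpiT arrays of JAG2 were spread more widely (SD 0.18) than the 0dpi arrays (SD 0.04), with replicate 1 above and the other two below all uninjured arrays. JAG2 was 1.37-fold lower in 1dpi than in 0dpi (-0.46 ± 0.09, 95% interval -0.66 to -0.26, adjusted p = 0.00145) and 1.29-fold higher in 1dpiT than in 1dpi (0.37 ± 0.09, 95% interval 0.17 to 0.57, adjusted p = 0.00523).

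NOTCH1, the receptor gene, was read by a pair of probe sets that gave different results. Probe set axo16095-r_at had 7.92, 7.76 and 7.78 in the 1dpiT arrays, 8.47, 8.46 and 8.44 in the 1dpi arrays, and 7.97, 8.01 and 8.04 in the 0dpi arrays. None of the 3 groups overlapped, with 1dpi highest and 1dpiT lowest. On this probe set NOTCH1 was 1.37-fold higher in 1dpi than in 0dpi (0.45 ± 0.05, 95% interval 0.33 to 0.57, adjusted p = 4.91e-05), a difference that turned to -0.094 (adjusted p = 0.216) with arrays centred on the poly-A spike-ins. It was 1.55-fold lower in 1dpiT than in 1dpi (-0.63 ± 0.05, adjusted p = 3.61e-06), which turned to 0.014 (adjusted p = 0.853) with that centring.

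Probe set axo16090-f_at of NOTCH1 had 5.52, 5.59 and 5.63 in the 1dpiT arrays, 5.63, 5.63 and 5.53 in the 1dpi arrays, and 5.50, 5.64 and 5.53 in the 0dpi arrays. All 3 groups overlapped. The difference was 0.04 between 1dpi and 0dpi (95% interval -0.09 to 0.17, adjusted p = 0.597) and -0.02 between 1dpiT and 1dpi (95% interval -0.14 to 0.11, adjusted p = 0.843). With spike-in centring, axo16090-f_at was called the other way, at -0.51 in 1dpi against 0dpi (adjusted p = 6.46e-06) and 0.63 in 1dpiT against 1dpi (adjusted p = 7.66e-07). No call for NOTCH1 was therefore shared by its 2 probe sets under either scaling, and the stretch of the transcript that each one reads was not analysed here.

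RBPJ, which codes for the DNA-binding protein through which the cut receptor acts, moved least of the 5 probe sets that were called. It had 7.24, 7.27 and 7.20 in the 1dpiT arrays, 7.05, 6.93 and 7.13 in the 1dpi arrays, and 7.22, 7.31 and 7.23 in the 0dpi arrays. The 1dpi arrays were below all others, by a narrow gap between the highest of them (7.13) and the lowest 1dpiT array (7.20). RBPJ was 1.16-fold lower in 1dpi than in 0dpi (-0.22 ± 0.06, 95% interval -0.35 to -0.08, adjusted p = 0.0119). It was 1.15-fold higher in 1dpiT than in 1dpi (0.20 ± 0.06, 95% interval 0.06 to 0.33, adjusted p = 0.0182). That second call depended on single arrays: the adjusted p was 0.0728 without 1dpi replicate 2 and 0.0610 without 1dpiT replicate 2, and it was 0.0559 with each array centred on its median.

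HES1, a repressor gene that Notch turns on in many vertebrate progenitors, had the largest differences of the 6 probe sets in both comparisons with 1dpi. It had 7.71, 7.97 and 7.95 in the 1dpiT arrays, 7.22, 7.18 and 7.05 in the 1dpi arrays, and 7.996, 8.04 and 8.04 in the 0dpi arrays. The 3 groups did not overlap, with 1dpi lowest and 0dpi highest. HES1 was 1.84-fold lower in 1dpi than in 0dpi (-0.88 ± 0.08, 95% interval -1.05 to -0.71, adjusted p = 4.24e-06). It was 1.66-fold higher in 1dpiT than in 1dpi (0.73 ± 0.08, 95% interval 0.56 to 0.90, adjusted p = 1.51e-05).

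Of the 6 member probe sets, 1 was called higher and 4 lower in 1dpi against 0dpi, where 24.7% of all 20035 probe sets were called higher and 28.2% lower. Against 1dpi, 4 were called higher and 1 lower in 1dpiT, where 29% of all probe sets were higher and 25% lower. More than 1 in 2 probe sets of the array thus changed in each comparison, and a call for a Notch gene is to be read against that. The members were chosen with earlier results of these data known, so a share above the array's is no test of the pathway. Because 1dpi stands in both comparisons, a level that is low in the 1dpi arrays gives a difference of opposite sign in each, and the 2 sets of calls are not independent of each other. None of the member differences reached 2-fold on deposited values.

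**Figure D2:**
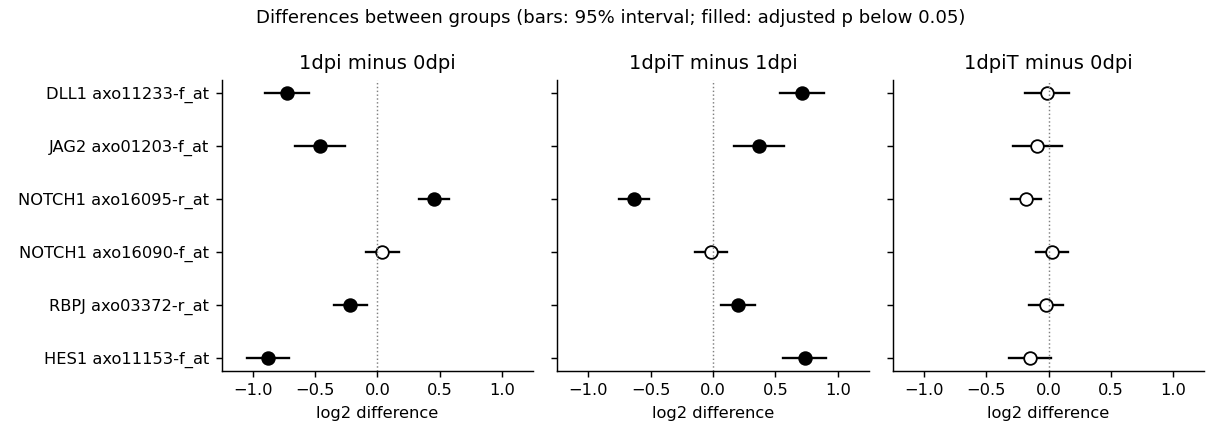
Log2 differences (horizontal axes) of the 6 probe sets in 1dpi minus 0dpi, 1dpiT minus 1dpi and 1dpiT minus 0dpi. Points are fitted differences, bars 95% intervals, and filled points adjusted p below 0.05. HES1 lies at -0.88 in the first panel and 0.73 in the second. NOTCH1 axo16095-r_at lies at 0.45 and -0.63 (turned to -0.094 and 0.014 by spike-in centring), and all points in the last panel are open.

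Cord given ivermectin was also set against uninjured cord, a comparison that takes the drug and any difference in injury and injection together. Of the 6 member probe sets, 0 were called in either direction by limma, where 2.26% of all probe sets were higher and 3.34% lower, and 1 had an unadjusted p below 0.05. The intervals bound what the arrays could miss. For DLL1 the difference was -0.01 (95% interval -0.19 to 0.16), for JAG2 -0.09 (-0.29 to 0.11) and for RBPJ -0.02 (-0.15 to 0.12), and these small differences turned to 0.088, 0.012 and 0.084 with spike-in centring. For DLL1, JAG2 and RBPJ, both ends of this interval were nearer to 0 than the fitted difference of 1dpi from 0dpi. That fitted difference has an interval of its own. It was -0.90 to -0.55 for DLL1, apart from the one above, but -0.66 to -0.26 for JAG2 and -0.35 to -0.08 for RBPJ, which overlap theirs.

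HES1 and NOTCH1 axo16095-r_at were the member probe sets whose 1dpiT and 0dpi arrays did not overlap. How many of all 20035 probe sets separated in this way was not counted, so the separation does not set these genes apart. HES1 was at -0.15 ± 0.08 in 1dpiT against 0dpi (95% interval -0.32 to 0.02, adjusted p = 0.347), with its highest 1dpiT array at 7.97 and its lowest 0dpi array at 7.996. NOTCH1 axo16095-r_at was at -0.18 ± 0.05 (95% interval -0.30 to -0.06, unadjusted p = 0.00728, adjusted p = 0.0895). This probe set was called lower without 1dpiT replicate 1 (-0.23, adjusted p = 0.0357), the array closest to 0dpi, and when the test was confined to the brighter 50% of probe sets (adjusted p = 0.0332). Its other probe set, axo16090-f_at, was at 0.02 (95% interval -0.10 to 0.15, adjusted p = 0.882).

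The scaling of the arrays bears on each direction given here. Poly-A spike-ins, transcripts added to each RNA sample during labelling, averaged 7.39 to 7.48 in the 1dpiT arrays, 8.04 to 8.13 in the 1dpi arrays and 7.50 to 7.56 in the 0dpi arrays. The median of all probe sets was 5.84 to 5.89 on every array. Centring each array on its spike-ins moved the median difference over all probe sets to -0.55 in 1dpi against 0dpi, 0.65 in 1dpiT against 1dpi and 0.11 in 1dpiT against 0dpi. Among called probe sets, the share with a higher signal became 6.95% in place of 46.7% in the first comparison, 94.0% in place of 53.7% in the second and 82.4% in place of 40.3% in the third. Whether the spike-ins were added in equal amounts, or the amount of RNA per pool differed, was not tested.

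On the spike-in scale, HES1 was at -1.43 in 1dpi against 0dpi and at 1.38 in 1dpiT against 1dpi. DLL1 was at -1.27 and 1.36, JAG2 at -1.005 and 1.02, and RBPJ at -0.76 and 0.85, all called. Read against the median shift of -0.55 and 0.65, these 4 genes were further from 0 than the median probe set in both comparisons. NOTCH1 axo16095-r_at, at -0.094 and 0.014, stayed close to 0 on that scale while the median probe set moved. Centring subtracts the same amount from all probe sets of an array. The places of these genes relative to the median therefore restate the deposited differences and are no second test of them.

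**Figure D3:**
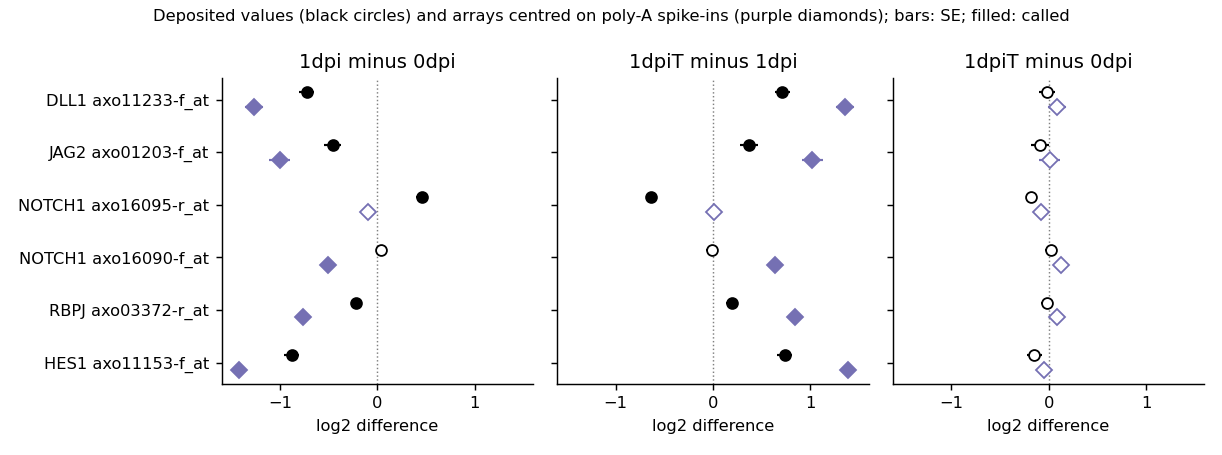
Log2 differences (horizontal axes) of the 6 probe sets from deposited values (black circles) and after centring each array on its poly-A spike-ins (purple diamonds). Bars are SE, 3 arrays per group, and filled symbols adjusted p below 0.05. DLL1, JAG2, RBPJ and HES1 keep their side of 0 in the first 2 panels, and NOTCH1 axo16095-r_at crosses 0, to -0.094 in 1dpi minus 0dpi and 0.014 in 1dpiT minus 1dpi. The centring moves all probe sets of an array alike, downwards in 1dpi, so genes already lower in 1dpi could not cross.

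The signal of marker genes for tissues around the cord also differed between the groups. In bulk tissue fewer cells of a type and less RNA per cell cannot be told apart. Of 8 skeletal muscle markers measured, 8 were higher in 1dpi than in 0dpi (median difference 2.35) and 8 were lower in 1dpiT than in 1dpi (median -2.63). Their summed linear signal was 29587 to 30111 in the 1dpiT arrays, 52679 to 53701 in the 1dpi arrays and 29203 to 30097 in the 0dpi arrays, so the arrays on which DLL1, JAG2, RBPJ and HES1 were low were those on which muscle signal was high. Although the sums of 1dpiT and 0dpi overlapped, 1 of the 8 was higher and 4 were lower in 1dpiT against 0dpi (median -0.22). With spike-in centring these were 1 and 2. Of all genes with a symbol, 2.16% were higher and 3.67% lower there on deposited values. Fibroblast markers were higher in 5 and lower in 1 of 7 in 1dpi against 0dpi, and higher in 1 and lower in 5 in 1dpiT against 1dpi. Among all genes with a symbol, 25.3% were higher and 29.5% lower in the first comparison, and 30.4% and 26.1% in the second. With spike-in centring, 7 muscle markers were higher and 1 lower in 1dpi against 0dpi, and 1 was higher and 5 lower in 1dpiT against 1dpi. The muscle list was uneven on that scale, from ACTN2 at 2.91 and -3.04 to CKM at -0.34 and 0.47, with DES at 0.15 and -0.10. A change in the amount of muscle tissue was not tested. The summed fibroblast signal was 18693 to 19181 in 1dpiT, 35126 to 35647 in 1dpi and 18357 to 20162 in 0dpi. With spike-in centring, 5 of the 7 fibroblast markers were higher and 2 lower in 1dpi against 0dpi. In 1dpiT against 1dpi, 2 were higher and 4 lower. Of all 20035 probe sets, that centring called 18220 in the first comparison, 1266 of them higher. It called 18652 in the second, 17530 of them higher. The part of these tissues in the Notch results was not tested.

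Ependymoglia markers, the genes of the canal-lining cells, were measured for 11 of 13 listed, and none of the 11 was at or below the highest negative control mean (3.47). Of these, 4 were higher and 1 lower in 1dpi against 0dpi, and 3 were higher and 4 lower in 1dpiT against 1dpi. VIM and GFAP, intermediate filament genes of these cells, averaged 13.2 and 10.4 in 1dpiT, 13.7 and 10.6 in 1dpi, and 13.3 and 9.97 in 0dpi. That order did not hold with spike-in centring, where VIM was at -0.13 in 1dpi against 0dpi and 0.16 in 1dpiT against 1dpi, and GFAP at 0.074 and 0.47. VIM, GFAP and the markers named next were chosen after their values were seen and do not stand for the list. On that scale KRT8 was at -0.86 and 1.04, PROM1 at -0.74 and 0.81 and SOX9 at -0.75 and 0.67. These were further from 0 than the median probe set (-0.55 and 0.65). FOXJ1 (-0.44 and 0.50), SLC1A3 (0.33 and 0.25) and FABP7 (0.26 and -0.10) were nearer to 0 than it, as were VIM and GFAP. The summed signal of the 11 was 28598 to 28859 in 1dpiT, 30294 to 30652 in 1dpi and 27842 to 29010 in 0dpi. With spike-in centring, 1 of the 11 was higher and 7 lower in 1dpi against 0dpi, and 10 were higher and 0 lower in 1dpiT against 1dpi. Neuron markers, with SYT1 at or below the negative control level in all groups, were higher in 6 and lower in 0 of 10 measured in 1dpi against 0dpi. They were higher in 1 and lower in 5 in 1dpiT against 1dpi. Leukocyte markers (9 measured) were higher in 3 and lower in 2 in 1dpi against 0dpi, and higher in 1 and lower in 4 in 1dpiT against 1dpi. Epithelium markers (6 measured) were higher in 1 and lower in 4, and higher in 3 and lower in 2, and endothelium markers (10 measured, with TIE1 at or below the negative control level) were higher in 2 and lower in 2 in each. Of 8 oligodendrocyte markers listed, MBP and CNP were measured, with a summed signal of 2270 to 2335 in 1dpiT, 3508 to 3663 in 1dpi and 2268 to 2376 in 0dpi. MBP was at 0.67 in 1dpi against 0dpi and -0.68 in 1dpiT against 1dpi, CNP at -1.01 and 0.99, all called (with spike-in centring MBP was at 0.12 and -0.029, not called, and CNP at -1.55 and 1.63). With spike-in centring, neuron markers were higher in 5 and lower in 5 in the first comparison and higher in 6 and lower in 1 in the second, and leukocyte markers higher in 2 and lower in 6, and higher in 7 and lower in 1. On that scale epithelium markers were higher in 0 and lower in 5, and higher in 5 and lower in 1, and endothelium markers higher in 0 and lower in 9, and higher in 9 and lower in 0. Beside these counts, 25.3% of all genes with a symbol were higher and 29.5% lower in 1dpi against 0dpi on deposited values. In 1dpiT against 1dpi the shares were 30.4% and 26.1%. With spike-in centring, 18220 of 20035 probe sets were called in the first comparison, 1266 of them higher, and 18652 in the second, 17530 of them higher. In 1dpiT against 0dpi on deposited values, ependymoglia markers were higher in 3 and lower in 0, and neuron markers higher in 4 and lower in 0. Leukocyte and epithelium markers were each higher in 0 and lower in 2, and endothelium markers higher in 1 and lower in 1. Of all genes with a symbol, 2.16% were higher and 3.67% lower there. The part of these cells in the Notch results was not tested.

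The rest of the pathway was read from a list by role, with the probe set of highest mean signal standing for each gene. Besides the members, 41 of 71 listed genes were measured, and NOTCH2, DLL4 and HES5 are among those not analysed here. In 1dpi against 0dpi, 11 of the 41 were higher and 8 lower, or 26.8% and 19.5%, beside 25.3% and 29.5% of all genes with a symbol. In 1dpiT against 1dpi, 8 were higher and 11 lower, beside 30.4% and 26.1% of all genes. The median difference of the 41 was 0.02 and -0.01 in these comparisons, beside -0.00 and 0.00 over all genes. With the 5 members counted in, 12 of 46 genes were higher and 12 lower (26.1% each) in both comparisons with 1dpi. Without them, the share lower in 1dpi against 0dpi and the share higher in 1dpiT against 1dpi were below those of all genes, a gap that was not tested. These splits followed the scaling: with spike-in centring 2 were higher and 36 lower in 1dpi against 0dpi, and 37 higher and 1 lower in 1dpiT against 1dpi. The whole array moved in the same way. That centring called 18220 of 20035 probe sets in the first comparison, 1266 of them higher. In the second it called 18652, 17530 of them higher. The same holds for the spike-in counts of each role below.

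**Figure D4:**
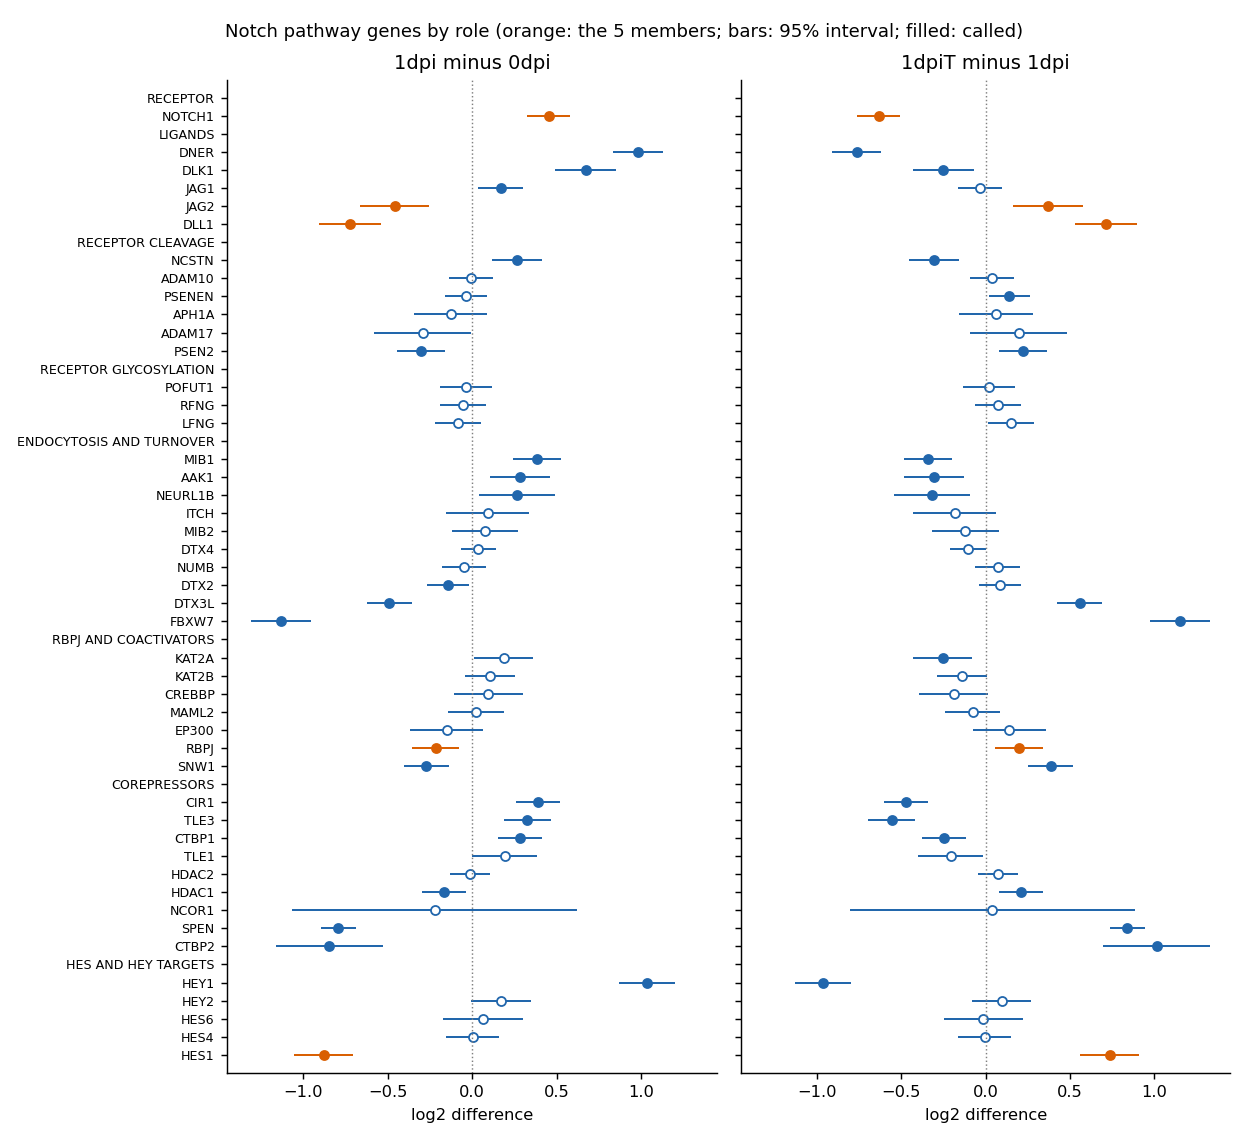
Log2 differences (horizontal axes) of Notch pathway genes by role, in 1dpi minus 0dpi and 1dpiT minus 1dpi, on deposited values. Points are fitted differences, bars 95% intervals, filled points adjusted p below 0.05, and orange marks the 5 members. HEY1 lies at 1.04 and -0.96, opposite to HES1 at -0.88 and 0.73. NOTCH1, at 0.45 and -0.63, turned to -0.094 and 0.014 with spike-in centring, and other genes also crossed 0 with it, among them MIB1, CIR1 and TLE3.

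The other 3 ligand genes measured were higher in 1dpi than in 0dpi on deposited values, unlike DLL1 and JAG2, and 1 of them (DNER) was still called higher with spike-in centring (0.44). DNER, which codes for a neuronal transmembrane protein proposed as a Notch ligand, had 7.52, 7.47 and 7.50 in the 1dpiT arrays, 8.14, 8.34 and 8.31 in the 1dpi arrays, and 7.26, 7.36 and 7.22 in the 0dpi arrays. It was 0.98 ± 0.06 higher in 1dpi than in 0dpi on the log2 scale (adjusted p = 5.13e-07) and was at -0.76 ± 0.06 in 1dpiT against 1dpi (adjusted p = 2.84e-06). Its second difference was -0.12 with spike-in centring (adjusted p = 0.177). DLK1, a Delta-like protein gene whose product lacks the domain by which ligands activate Notch, was at 0.67 in 1dpi against 0dpi (adjusted p = 3.8e-05) and -0.25 in 1dpiT against 1dpi (adjusted p = 0.0196), and the second value turned to 0.40 with spike-in centring. That second call was lost without 1dpiT replicate 1 (adjusted p = 0.0753).

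DLK1 had 4.87, 5.04 and 5.09 in the 1dpiT arrays, 5.25, 5.25 and 5.25 in the 1dpi arrays, and 4.43, 4.70 and 4.61 in the 0dpi arrays. It was the 1 gene of the 41 called in 1dpiT against 0dpi (0.42 ± 0.08, adjusted p = 0.0113), with 0 called lower, where 2.16% of all genes were higher and 3.67% lower. Without adjustment, 4 of the 41 were higher and 1 lower in that comparison at p below 0.05. JAG1, the other Jagged-type ligand gene, was at 0.17 in 1dpi against 0dpi (adjusted p = 0.0295) and at -0.03 in 1dpiT against 1dpi (adjusted p = 0.648), so the 2 Jagged genes had opposite signs after injury on deposited values, and both were lower with spike-in centring (JAG1 at -0.38).

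Of 5 HES and HEY genes measured from the target list, 1 was higher and 1 lower in each comparison with 1dpi. Whether Notch turns on each of these genes in this tissue was not tested. With spike-in centring 1 was higher and 4 lower in 1dpi against 0dpi, and 4 were higher and 1 lower in 1dpiT against 1dpi. Those counts of 4 include HES4 (-0.54 and 0.64), whose signal was below the negative control level. HEY1, a repressor gene related to HES1, had 6.48, 6.64 and 6.58 in the 1dpiT arrays, 7.53, 7.46 and 7.60 in the 1dpi arrays, and 6.38, 6.61 and 6.50 in the 0dpi arrays. All 1dpi arrays were above all others, while for HES1 all 1dpi arrays were below. HEY1 was at 1.04 ± 0.07 in 1dpi against 0dpi (adjusted p = 8e-07) and at -0.96 ± 0.07 in 1dpiT against 1dpi (adjusted p = 1.21e-06). With spike-in centring these were 0.49 and -0.32, both still called, so HEY1 and HES1 kept opposite directions on that scale. HEY2 was at 0.17 and 0.09 (adjusted p = 0.0869 and 0.328), the first of which was -0.38 with spike-in centring and was called without 1dpi replicate 2 (0.26, adjusted p = 0.00654). HES6 was at 0.06 and -0.01 (adjusted p = 0.632 and 0.925; -0.48 and 0.63 with spike-in centring), and all 9 arrays of HES4 were below the negative control level, between 3.08 and 3.30.

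Of 6 cleavage genes, 1 was higher and 1 lower in 1dpi against 0dpi, and 2 were higher and 1 lower in 1dpiT against 1dpi (with spike-in centring 6 were lower in the first and 6 higher in the second). PSEN2, a catalytic subunit gene of gamma-secretase, was at -0.30 in the first comparison and 0.22 in the second (adjusted p = 0.00167 and 0.0102). NCSTN, another subunit gene, was at 0.26 and -0.31 (adjusted p = 0.00548 and 0.00212), which turned to -0.28 and 0.34 with spike-in centring. Its other probe set was at -0.11 (adjusted p = 0.138) and 0.65 (adjusted p = 5.65e-06). With the probe sets of NCSTN averaged, the values were 0.08 (adjusted p = 0.294) and 0.17 (adjusted p = 0.0252). PSENEN was at -0.04 and 0.14 (adjusted p = 0.574 and 0.0448), and 6 of 9 fits that left out 1 array lost the second call (adjusted p up to 0.119). ADAM17, the gene of a protease that makes the first cut, was at -0.29 and 0.20 (adjusted p = 0.0753 and 0.224), and the first was called without 0dpi replicate 1 (0.0288). Both were called with its probe sets averaged (-0.24, adjusted p = 0.0222, and 0.22, adjusted p = 0.0357), with spike-in centring (-0.84 and 0.84) and on its other probe set (-0.19, adjusted p = 0.0423, and 0.24, adjusted p = 0.0147).

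Of 3 glycosylation genes, whose products add sugars to Notch, 0 were called in either comparison with 1dpi on deposited values, whereas with spike-in centring 3 were lower in 1dpi against 0dpi and 3 higher in 1dpiT against 1dpi. At an unadjusted p below 0.05, 0 passed in 1dpi against 0dpi and 1 in 1dpiT against 1dpi. LFNG was at -0.09 and 0.15 (adjusted p = 0.245 and 0.0539), RFNG at -0.06 and 0.07, and POFUT1 at -0.03 and 0.02, the last of which changed sign with median centring (0.00 and -0.03). LFNG was called in 1dpiT against 1dpi without 1dpi replicate 2 (adjusted p = 0.0428). LFNG is also 1 gene where the choice of probe set mattered: its other probe set was at -1.08 in 1dpi against 0dpi (adjusted p = 4.41e-05) and 0.87 in 1dpiT against 1dpi (adjusted p = 0.000184), and with its probe sets averaged LFNG was called at -0.58 and 0.51.

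Of 10 genes for endocytosis and turnover, 3 were higher and 3 lower in 1dpi against 0dpi, and 2 were higher and 3 lower in 1dpiT against 1dpi (with spike-in centring 10 were lower in the first and 10 higher in the second). FBXW7, which codes for the ubiquitin ligase subunit that marks the active receptor fragment for breakdown, had 9.13, 8.94 and 8.93 in the 1dpiT arrays, 7.77, 7.97 and 7.80 in the 1dpi arrays, and 8.96, 9.07 and 8.91 in the 0dpi arrays. Its 1dpi arrays were all about 1 log2 unit below the rest. FBXW7 was at -1.13 ± 0.08 in 1dpi against 0dpi (adjusted p = 7.83e-07) and 1.15 ± 0.08 in 1dpiT against 1dpi (adjusted p = 6.19e-07). DTX3L, a Deltex-family ubiquitin ligase gene, was at -0.49 and 0.56 (adjusted p = 3.88e-05 and 1.41e-05). MIB1, whose product ubiquitinates ligands so that they can signal, was at 0.39 and -0.34 (adjusted p = 0.000364 and 0.000809), which turned to -0.16 and 0.31 with spike-in centring.

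In the nucleus, RBPJ and SNW1 were the 2 of 7 genes for the activating complex that were lower in 1dpi than in 0dpi, and 0 were higher (3 of the 7 had an unadjusted p below 0.05, and with spike-in centring 7 were lower). SNW1, a coactivator and splicing factor gene, was at -0.27 in 1dpi against 0dpi (adjusted p = 0.00225) and 0.38 in 1dpiT against 1dpi (adjusted p = 0.000208), the same signs as RBPJ. KAT2A, a histone acetyltransferase gene, was at 0.19 and -0.25 (adjusted p = 0.0648 and 0.0165), turning to -0.36 and 0.39 with spike-in centring. Its 1dpiT against 1dpi difference was no longer called if 1dpi replicate 1 (adjusted p = 0.0516) or replicate 3 (0.0667) was left out, and it was called in 1dpi against 0dpi without 0dpi replicate 2 (0.0228) or 1dpi replicate 2 (0.017). In 1dpiT against 1dpi, 2 of the 7 were higher and 1 was lower (7 higher with spike-in centring).

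Of 9 corepressor genes, whose products hold RBPJ targets off when Notch is not cut, 3 were higher and 3 lower in each comparison with 1dpi (with spike-in centring 7 were lower in 1dpi against 0dpi and 7 higher in 1dpiT against 1dpi). SPEN, a large repressor protein gene, had 11.29, 11.31 and 11.33 in the 1dpiT arrays, 10.45, 10.47 and 10.48 in the 1dpi arrays, and 11.22, 11.29 and 11.27 in the 0dpi arrays. It was at -0.79 ± 0.04 in 1dpi against 0dpi (adjusted p = 1.75e-07) and 0.84 ± 0.04 in 1dpiT against 1dpi (adjusted p = 1.01e-07). The first value was the lowest of 29 SPEN probe sets, which ran up to 0.34, and with all 29 averaged SPEN was at -0.21 and 0.25 (adjusted p = 0.00461 and 0.00132). CIR1 was at 0.39 and -0.47 (adjusted p = 0.000168 and 4.02e-05) and TLE3, a Groucho-family gene, at 0.33 and -0.56 (adjusted p = 0.000934 and 1.93e-05), and both turned with spike-in centring (CIR1 to -0.15 and 0.18, TLE3 to -0.22 and 0.09). CTBP2 was at -0.85 and 1.01 (adjusted p = 0.000462 and 0.000121), with its 1dpi arrays at 3.22, 3.38 and 3.22, below the negative control level.

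Of 9 listed genes for neurogenic transcription factors, which HES proteins are known to repress in the neural tube, INSM1 was the 1 measured. This zinc-finger factor gene had 4.58, 4.52 and 4.82 in the 1dpiT arrays, 3.69, 3.59 and 3.51 in the 1dpi arrays, and 4.47, 4.71 and 4.45 in the 0dpi arrays. Its 1dpi arrays were close to the negative control level of 3.47. INSM1 was at -0.94 ± 0.10 in 1dpi against 0dpi (adjusted p = 1.37e-05) and 1.04 ± 0.10 in 1dpiT against 1dpi (adjusted p = 5.95e-06), so it was low on the same arrays as HES1.

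The genes whose profiles over the 9 arrays lay closest to each member were found by the root mean square (RMS) difference of profiles centred on their own mean, among 8639 genes. All profiles share the same 3 groups, so closeness is mostly a likeness of the group steps, and it is given as a description. For HES1 they were CTSS (0.0659), FGFBP1 (0.0670) and UNC93B1 (0.0699), which code for a lysosomal protease, a secreted binder of fibroblast growth factors and a trafficking chaperone of Toll-like receptors. For DLL1 they were LMNB1 (0.0497), a nuclear lamina gene, SART3 (0.0566) and PCSK5 (0.0578). For JAG2 they were LCP1 (0.0581), an actin-bundling gene of leukocytes, LRPPRC (0.0623) and RBM5 (0.0626).

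RBPJ lay closest to GRINA (0.0289), DAGLB (0.0372) and RILPL1 (0.0394), and NOTCH1 axo16095-r_at to TEP1 (0.0345), CUBN (0.0379) and F13A1 (0.0475). The RMS difference between members was larger than any of these. It was 0.164 between DLL1 and HES1, 0.166 between DLL1 and JAG2, 0.154 between JAG2 and RBPJ and 0.271 between DLL1 and RBPJ. The genes above were picked as the closest of 8639, so this order was nearly fixed in advance. Pearson's r of DLL1 over the 9 arrays was 0.91 with HES1, 0.93 with JAG2 and 0.78 with RBPJ, and it was -0.89 with NOTCH1 axo16095-r_at on deposited values. HES1 and JAG2 differed by 0.257, and their step after injury was -0.88 for HES1 and -0.46 for JAG2. These 4 genes thus shared 1dpi as their lowest group but not the size of the step.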

How the data were processed

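The deposited values were log2 signals per probe set, which the authors made with RMA in Affymetrix Expression Console (per the labels; versions not given in the sources used here). RMA evens out array distributions, so a shift of most transcripts is not kept in these values. The table held 20080 probe sets, and 45 controls (24 poly-A, 18 hybridization, 3 negative) were left out of tests. No filter on low values was used, so all 6 member probe sets were tested. Gene symbols came from the platform's annotation (10951 probe sets with 1 symbol, 9084 with none or with several). An array gives no read depth, and 3 arrays per group limit the precision.

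Differences between groups came from limma 3.58.1 in R 4.3.3 (lmFit and eBayes over all 9 arrays, 1 coefficient per group, 2-sided, Benjamini-Hochberg over 20035 probe sets), after the script was tested on simulated data. Figures were drawn with matplotlib 3.10.9. The members and lists were chosen with earlier results of these data known. Named genes were all member probe sets, up to 3 genes per role list with the smallest p in each of 1dpi against 0dpi and 1dpiT against 1dpi, and the 3 genes most like each member. Other genes named (JAG1, HES6, HES4, CTBP1, NCOR1 and the further probe sets) were chosen after their values were seen. So were the single marker genes named (VIM, GFAP, KRT8, PROM1, SOX9, FOXJ1, SLC1A3, FABP7, ACTN2, CKM, DES, SYT1, TIE1, MBP and CNP). Alternatives were median centring, quantile normalization, spike-in centring, testing the brighter 50% of probe sets alone, trend and robust variances, 6 arrays only, the replicate number as a block, averaging probe sets, a 2-fold threshold at an unadjusted p below 0.05 and leaving out each array. No sequence or coordinate is given, since none was used here.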

Additional observations from a re-analysis of the deposited data

How the results depend on the processing

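Under spike-in centring, NOTCH1 axo16095-r_at was at -0.0939 and 0.0136 and NOTCH1 axo16090-f_at at -0.51 and 0.63 in 1dpi against 0dpi and 1dpiT against 1dpi, and DLL1 was at 0.0876, JAG2 at 0.0125 and RBPJ at 0.0836 in 1dpiT against 0dpi. With its probe sets averaged, NOTCH1 was at 0.25 and -0.32 (both called) and at -0.0788 in 1dpiT against 0dpi. With the dimmest 50% left out, NOTCH1 axo16095-r_at was called in 1dpiT against 0dpi (-0.18), and axo16090-f_at gave no value. Median centring left RBPJ at 0.15 in 1dpiT against 1dpi (not called). Other genes changed sign with spike-in centring, in 1dpi against 0dpi and 1dpiT against 1dpi: NCSTN (-0.28, 0.34), MIB1 (-0.16, 0.31), KAT2A (-0.36, 0.39), CIR1 (-0.15, 0.18) and TLE3 (-0.22, 0.0913), as well as DLK1 (0.40, second only) and HEY2 (-0.38, first only). POFUT1 did so with median centring (0.00418, -0.0284), and NCSTN was at 0.17 in 1dpiT against 1dpi with its probe sets averaged. The cause was not tested.

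Member counts became 0 higher in 1dpi against 0dpi and 0 lower in 1dpiT against 1dpi with spike-in centring, 0 in each direction at the 2-fold threshold, and 1 lower in 1dpiT against 0dpi with the dimmest 50% left out. Of the 41 other pathway genes, spike-in centring gave 2 higher and 36 lower in 1dpi against 0dpi, 37 higher and 1 lower in 1dpiT against 1dpi, and 4 higher in 1dpiT against 0dpi. Over all 20035 probe sets, that centring called 18220, 18652 and 1952, of which 1266, 17530 and 1609 were higher. The 2-fold threshold gave 1 higher and 1 lower, 2 higher and 0 lower, and 0 higher in these comparisons. How many of all probe sets passed that threshold was not counted. Leaving out the dimmest 50% gave 7 lower in 1dpiT against 1dpi, but this setting no longer tested the dimmer of the 41 genes. It called 7581 of 10017 probe sets there, 4324 of them higher. In 1dpiT against 0dpi, 1 was lower with median centring, quantile normalization, the dimmest 50% left out, trend and robust variances or averaged probe sets. There, 2 were higher with trend and robust variances, the 6 arrays compared or averaged probe sets. Over all 20035 probe sets, median centring called 1126 (418 higher) and quantile normalization 1149 (466 higher) in that comparison. Trend and robust variances called 1694 (777 higher) and the 6 arrays compared 861 (327 higher). With the dimmest 50% left out, 1497 of 10017 were called, 676 of them higher.

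Leaving out each array in turn, RBPJ ran between 0.14 and 0.25 in 1dpiT against 1dpi, and between -0.0370 and 0.00743 in 1dpiT against 0dpi. In 1dpiT against 0dpi, NOTCH1 axo16095-r_at ran between -0.23 and -0.15, axo16090-f_at between -0.00489 and 0.0680 and DLL1 between -0.0766 and 0.0515. In 1dpiT against 1dpi, axo16090-f_at ran between -0.0498 and 0.0136. POFUT1 ran between -0.0830 and 0.0178 in 1dpi against 0dpi and between -0.0343 and 0.0665 in 1dpiT against 1dpi. Called in 1dpiT against 0dpi were 0 to 1 members lower and 1 to 2 pathway genes higher (2 without 1dpi replicate 1 or 2).

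Deviations of same-numbered arrays from their group means correlated between -0.22 and 0.23. Differently numbered arrays were not set beside them, so this does not decide whether replicate numbers pair the arrays. With the replicate block, 10273, 10492 and 809 probe sets were called in the 3 comparisons (10597, 10828 and 1122 without it), and no member call changed (RBPJ at -0.22, adjusted p = 0.0279, and 0.20, adjusted p = 0.039). The number called in 1dpiT against 0dpi ran between 640 (without 0dpi replicate 2) and 1952 (spike-in centring).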

Other observations

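Several pathway genes carried probe sets that did not move together, chosen here after their values were seen. SPEN had 29 probe sets, of which 2 were higher, 16 lower and 11 not called in 1dpi against 0dpi, and 14 higher, 2 lower and 13 not called in 1dpiT against 1dpi, and its differences ran between -0.79 and 0.34 in the first and between -0.25 and 1.04 in the second. CTBP1, a corepressor gene, was at 0.28 in 1dpi against 0dpi on the probe set that stood for it (adjusted p = 0.00152) and at -0.69 on axo17420-f_at (adjusted p = 2.26e-06), and in 1dpiT against 1dpi the values were -0.25 (adjusted p = 0.00356) and 0.83 (adjusted p = 5.4e-07). With spike-in centring the probe set that stood for CTBP1 was at -0.26 and 0.40. The other NCSTN probe set, axo14917-f_at, was at 0.65 in 1dpiT against 1dpi (adjusted p = 5.65e-06) and at 0.54 in 1dpiT against 0dpi (adjusted p = 0.000567), where the one that stood for NCSTN was at -0.31 and -0.04. NCOR1, another corepressor gene, had 6.86, 6.96 and 7.88 in the 1dpiT arrays, 7.35, 7.14 and 7.10 in the 1dpi arrays, and 8.19, 7.54 and 6.53 in the 0dpi arrays, and none of the differences of this probe set was called (adjusted p of 0.651 to 0.937). NCOR1 axo11949-f_at was called at -0.32 in 1dpi against 0dpi (adjusted p = 0.0223) and at 0.31 in 1dpiT against 1dpi (adjusted p = 0.0249).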
